A study of Mus musculus with 3 samples.

Results

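The thrombospondins were followed here as the 5 genes *Thbs1*, *Thbs2*, *Thbs3*, *Thbs4* and *Comp*, chosen by name, and all 5 were found among the 27755 genes listed for the culture, the 27755 listed for the tail and the 25936 listed for the D6 cells. The study compared tendon cells made from mouse embryonic stem cells with tendon cells of the embryo, using 1 single-cell library per condition. The culture library held the whole D10 culture of ScxGFP mESCs, a line whose green reporter is driven by *Scx* sequences, which had been kept on feeder cells, taken through paraxial mesoderm (PM) with the Wnt agonist CHIR and the BMP inhibitor LDN-193189, and given TGFβ1, the hedgehog agonist SAG and FGF2 from D6. The tail library held the dissociated tail of E14.5 ScxGFP mouse embryos, and the D6 PM library held the same differentiation before TGFβ1, SAG and FGF2 were added. No sort for the reporter is described for any of the 3 libraries.

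Thrombospondins are large secreted calcium-binding glycoproteins of the extracellular matrix. Thbs1 and Thbs2 assemble as trimers, bind CD36 and CD47 and hinder blood vessel growth, and Thbs1 also binds and can activate latent TGFβ. Thbs3, Thbs4 and Comp assemble as pentamers, bind collagens and matrilins and are known from tendon, muscle and cartilage, where Comp (cartilage oligomeric matrix protein) is a matrix component of chondrocytes and of adult tendon.

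The culture library held 7821 cells with a median of 5622 unique molecular identifiers (UMIs) per cell, the tail 2052 cells with 13512, and the D6 PM library 5954 cells with 8171. Each cell carries a cluster code from the deposited data, shared by culture and tail but made separately for D6 PM, and 30 groups of library and code held at least 20 cells. Code 1 was tendon-like, with *Scx* at 2410 CPM in culture and 1472 CPM in tail and *Col1a1* at 2741 and 3185 CPM. Code 2 led with genes of cell division and had *Scx* at 2699 and 1664 CPM. Code 4 was cartilage-like, with *Col2a1* at 2271 CPM in culture and 4282 CPM in tail and *Acan* at 208 and 259 CPM, and kept *Scx* at 1852 and 1905 CPM. *Tnmd*, a membrane protein of mature tenocytes, was weaker in the culture, at 23.6 CPM in culture code 1 and 93 CPM in tail code 1. Of the 7 tendon markers listed, 3 were at least 2-fold higher in culture code 1 than in tail code 1, and 1 was lower.

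Levels are given as CPM, the gene's part of all UMIs summed over a group on the usual CPM scale, and the range in brackets is an exact 95% interval that covers counting error only. The libraries are 3-prime libraries, in which a transcript gives 1 tag whatever its length, so levels of different genes can be set side by side only as tags captured. With 1 library per condition no test between conditions was possible, and the difference between libraries cannot be told apart from that between conditions. A gene was called apart at 2-fold, where either group had a UMI of it in 10% of its cells or more. The codes came from clustering on the genes themselves, so levels between codes are descriptions of the clusters.

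*Thbs2* was the most abundant thrombospondin of the culture, and it was higher in culture than in tail in each of the 3 codes. In code 1 it stood at 400 CPM (390–410) in culture, from 6635 UMIs, and at 101 CPM (95–108) in tail, from 1024 UMIs. In code 2 it stood at 289 CPM in culture and 67.7 CPM in tail, and in code 4 at 139 CPM in culture and 17.5 CPM in tail. The intervals did not overlap in any code. The culture/tail ratio was 3.95 (3.7–4.23) in code 1, 4.27 (3.78–4.83) in code 2 and 7.91 (6.01–10.6) in code 4, and only 208, 168 and 46 of the genes tested in these codes had a higher ratio. The median gene tested had a ratio of 0.867, 0.881 and 0.884, so genes in general stood slightly lower in culture on this scale. Marker genes moved between the libraries as well, where of all genes tested 5.76%, 5.5% and 4.86% were at least 2-fold higher in culture in codes 1, 2 and 4, and 13.6%, 13.6% and 13% higher in tail. In code 1 the 3 proliferation markers were all at least 2-fold higher in culture, with a median log2 ratio of 2.43, as were the 3 somite markers that passed the filter, with 1.58. There 3 of 7 tendon markers were higher and 1, *Tnmd*, lower, with a median of 0.71. Of 5 cartilage markers that passed, 1 was higher and 0 lower, with a median of 0.77. In code 2 the 3 somite markers were again higher, with 1.48, and 2 of 7 tendon markers were higher and 1, *Tnmd*, lower. *Tnmd* passed the filter in codes 1 and 2 only through the tail, where it was high, so nothing is read from its being called lower. In code 2, 0 of 3 proliferation and 0 of 6 cartilage markers were 2-fold apart. In code 4, 3 of 6 tendon markers were higher in culture, with a median of 1.83 and *Dcn* at 662 CPM in culture and 36.3 CPM in tail, and 2 of 6 cartilage markers were lower, with a median of −0.79. There the 3 proliferation markers and 2 of 3 somite markers were also higher in culture, with medians of 1.97 and 1.75. The 2 erythroid markers that passed were lower in culture in each code, with *Hba-a1*, a haemoglobin gene, at 1.15 CPM in culture code 1 and 246 CPM in tail code 1. Both passed the filter only through the tail, where they were high, so nothing is read from their being called lower. The part of all these marker genes in the differences of *Thbs2* and of *Thbs4* was not tested.

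*Thbs4* was confined almost wholly to the tendon-like codes. Codes 1 and 2 together held 97% (96.2–97.7) of its UMIs in culture and 96% (94.1–97.4) in tail, against 51.1% and 46.1% of all UMIs. In code 1 *Thbs4* stood at 87.5 CPM (83.1–92.1) in culture and 48.4 CPM (44.2–52.9) in tail, and in code 2 at 68.6 and 24.5 CPM. The culture/tail ratio was 1.81 (1.63–2.01) in code 1, short of 2-fold but 2.09 relative to the median gene, and 2.8 (2.28–3.47) in code 2. In code 4 only 9 UMIs were counted in culture and 2 in tail, and the ratio of 4.48 (0.926–42.6) was not resolved from so few UMIs.

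*Thbs1*, which many cell types make, differed little between culture and tail in the tendon-like codes and more in the cartilage-like code. It stood at 91.3 CPM (86.7–96) in culture code 1 and 107 CPM (101–114) in tail code 1, a ratio of 0.85 (0.786–0.92), and at 67.2 and 86.6 CPM in code 2, a ratio of 0.776 (0.684–0.882). In code 4 it stood at 140 CPM (127–153) in culture and 326 CPM (306–346) in tail, a ratio of 0.429 (0.384–0.479). The code 1 ratio was close to that of the median gene, relative to which it was 0.98. Immediate-early genes, which respond to tissue dissociation, moved with the library as well: *Fos* stood at 27.3 CPM in culture code 1 and 889 CPM in tail code 1, and *Egr1* at 71.2 and 436 CPM. In code 4 *Fos* stood at 30.1 and 551 CPM and *Egr1* at 45.7 and 386 CPM. Of the 5 genes of that list, 4 passed the filter in code 1 and all 4 were at least 2-fold higher in tail, as were 5 of 5 in code 2 and 2 of 3 in code 4, beside 13.6%, 13.6% and 13% of all genes tested. At least *Atf3*, with 54 UMIs in culture code 1 and 19 in culture code 2, passed only through the tail, where it was high. Nothing is therefore read from these counts. The part of the immediate-early genes in the *Thbs1* level was not tested.

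*Thbs3* was lower in culture in each code. It stood at 12.6 CPM (10.9–14.4) in culture code 1 and 35.8 CPM (32.2–39.6) in tail code 1, a ratio of 0.352 (0.296–0.419). The ratio was 0.462 (0.353–0.606) in code 2 and 0.504 (0.326–0.768), just short of 2-fold, in code 4. *Thbs3* overlaps *Mtx1*, a mitochondrial outer membrane gene on the opposite strand. The sources used here name the counting program but not its strand setting. How far *Thbs3* reads were kept apart from those of *Mtx1* is therefore not known here. *Mtx1* itself stood at 55.6 CPM in culture code 1 and 47.4 CPM in tail code 1, a ratio of 1.17 (1.05–1.31), the other direction from *Thbs3*.

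*Comp* was the rarest member of the culture and formed a small, uneven signal in the tail cartilage-like cells. Tail code 4 held 117 UMIs or 35.4 CPM (29.3–42.4), and culture code 4 held 5 UMIs or 1.5 CPM (0.488–3.51), a tail level 23.5 times (9.8–73.8) that of culture. In code 1 the order was turned, with 23 UMIs or 1.39 CPM in culture and 2 UMIs or 0.198 CPM in tail, a ratio of 7.02 (1.73–61.4), and of 12.2 from 20 and 1 UMIs without the cell richest in *Comp* in each library. In code 2, with 10 and 4 UMIs, the ratio was 1.01 (0.292–4.42), and 3.62 from 9 and 1 UMIs without those cells. In culture, codes 1 and 2 held 51.6% (38.7–64.2) of the *Comp* UMIs, close to their 51.1% of all UMIs, and the 1.39 CPM of code 1 was like the 1.35 CPM (0.616–2.56) of culture code 5, so *Comp* was not gathered in the tendon-like codes there. *Comp* reached 10% of the cells in none of these groups, so it was left out of the 2-fold counts.

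**Figure D1:**
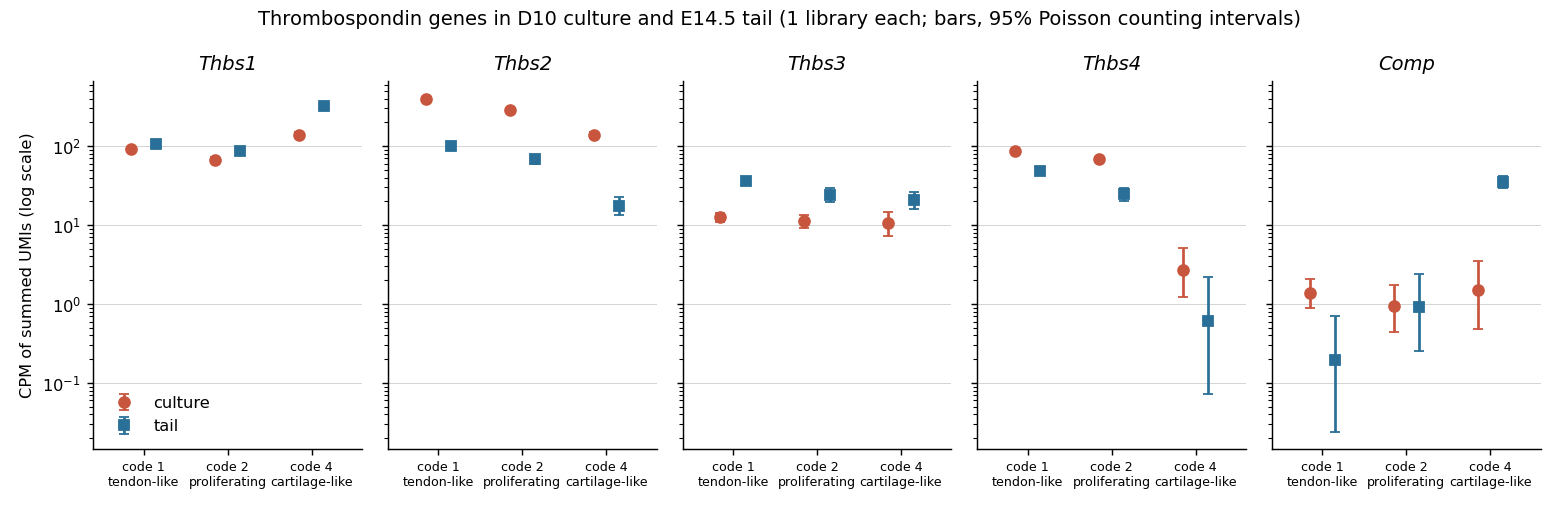
CPM of summed UMIs (log scale) of each thrombospondin gene in codes 1, 2 and 4 of culture (circles) and tail (squares), with exact 95% Poisson counting intervals and 1 library per condition. *Thbs2* stood highest in culture code 1 at 400 CPM, *Thbs1* in tail code 4 at 326 CPM, and *Comp* in tail code 4 at 35.4 CPM, against 1.5 CPM or less in the other 5 groups shown.

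Read by the 2-fold rule, 4 members passed the filter in code 1, of which *Thbs2* was higher and *Thbs3* lower in culture, beside 19.4% of the 10418 genes tested being 2-fold apart, 5.76% higher in culture and 13.6% higher in tail. Relative to the median gene *Thbs4* was past 2-fold as well. In code 2 also 4 passed, of which *Thbs2* and *Thbs4* were higher and *Thbs3* lower, beside 19.1% of all genes tested, 5.5% higher in culture and 13.6% higher in tail. The *Thbs3* call in code 2 was lost relative to the median gene, at 0.524, and as the mean of per-cell CPM, at 0.547. *Thbs3* passed the filter in codes 1 and 2 only through the deeper tail, where it was high, with a UMI in 33.3% and 34.4% of cells against 6.61% and 8.43% in culture, so nothing is read from its being called lower. In code 4 the 3 that passed were *Thbs2*, higher, *Thbs1*, lower, and *Thbs3*, within 2-fold, beside 17.9% of all genes tested, 4.86% higher in culture and 13% higher in tail.

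**Figure D2:**
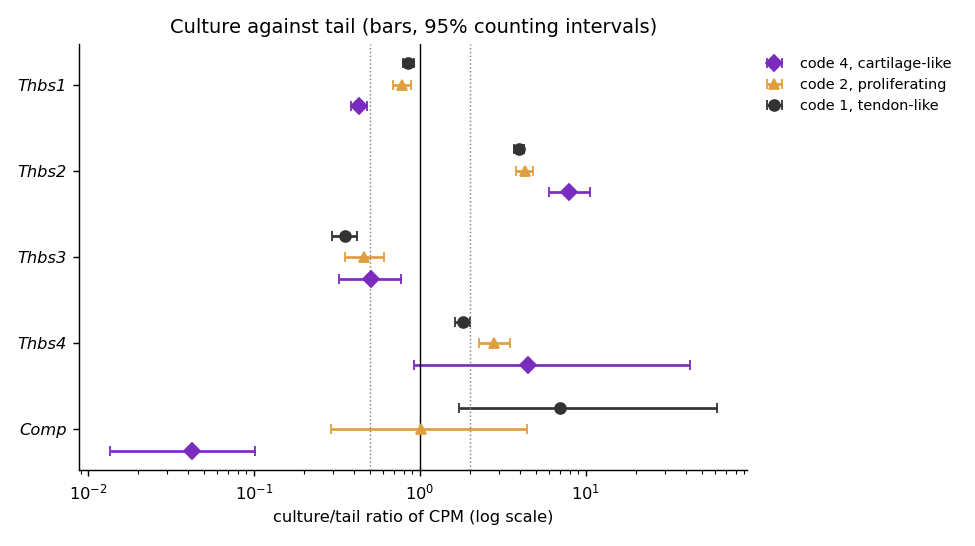
Culture/tail ratio of CPM (log scale) of each member in code 1 (circles), code 2 (triangles) and code 4 (diamonds), with exact 95% counting intervals, the solid line at 1 and the dotted lines at 2-fold. *Thbs2* lay above 2-fold in each code, *Thbs3* below 1 in each code, and *Comp* ran from 7.02 in code 1 to 0.0425 in code 4.

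The make-up of the thrombospondin UMIs differed as well. In code 1 *Thbs2* was 67.5% (66.5–68.4) of the 9833 thrombospondin UMIs in culture and 34.5% (32.8–36.3) of 2965 in tail, where *Thbs1* had a like share of 36.7% (34.9–38.4). *Thbs4* kept a like share, 14.8% (14.1–15.5) in culture and 16.5% (15.2–17.9) in tail. In code 4 *Thbs1* and *Thbs2* shared the culture UMIs at 47.7% and 47.3%, whereas in tail *Thbs1* alone took 81.4% (79.2–83.5) and *Comp* 8.84% (7.37–10.5). Summed over the family, the level was 593 CPM in culture code 1 and 293 CPM in tail code 1, but 293 CPM in culture code 4 and 400 CPM in tail code 4.

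**Figure D3:**
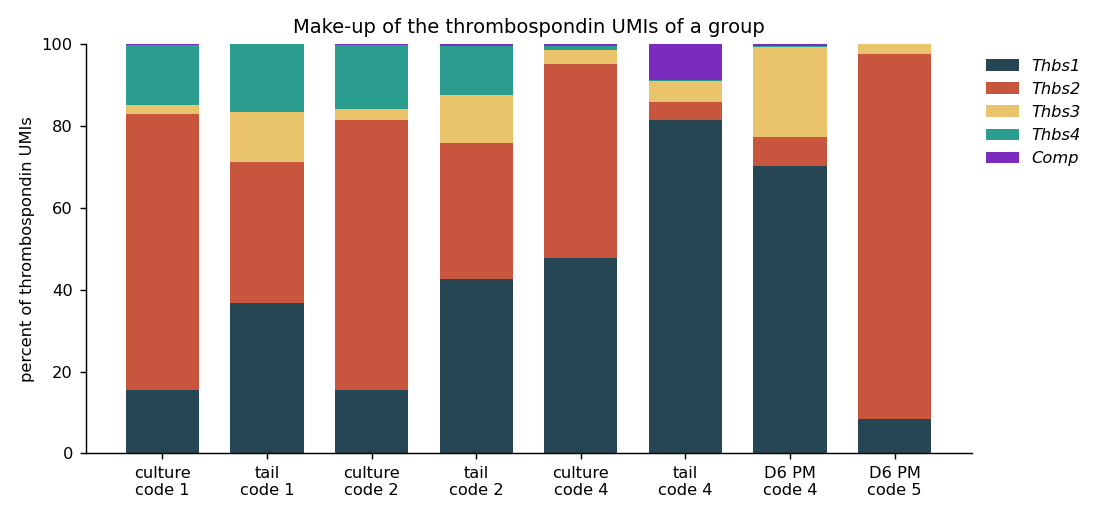
Percent of the thrombospondin UMIs of a group that came from each member, for codes 1, 2 and 4 of culture and tail and codes 4 and 5 of D6 PM. *Thbs2* filled 67.5% of the bar of culture code 1 and *Thbs1* 81.4% of the bar of tail code 4.

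From the tendon-like to the cartilage-like code *Thbs4* and *Thbs2* were lower and *Thbs1* was higher in both libraries. *Thbs4* was nearly absent from code 4, being 32.3 times (17–70.9) lower in code 4 than in code 1 of the culture and 80 times (22–663) lower in the tail. *Thbs2* was 2.89 times (2.62–3.18) lower in code 4 in culture and 5.77 times (4.42–7.65) lower in tail.

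*Thbs1* went the other way, at 1.53 times (1.38–1.7) its code 1 level in culture code 4 and 3.03 times (2.79–3.3) in tail code 4. *Comp* was level between the codes in culture within a wide interval, with a ratio of 1.08 (0.322–2.92), and 179 times (48.5–1496) higher in code 4 of the tail. Of the members that passed the filter in culture, *Thbs2* and *Thbs4* of 3 were 2-fold lower in code 4, beside 4.9% of all genes tested, 3.36% in that direction. *Thbs4* passed the filter only through code 1, where it was high, in 17.1% of cells against 0.936% of code 4 in culture and 15.6% against 0.83% in tail, so nothing is read from its being called lower in code 4. In tail 4 passed, with *Thbs1* higher and *Thbs2* and *Thbs4* lower, beside 9.93% of all genes tested, 3.65% higher and 6.28% lower.

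The proliferating code 2 differed less from code 1. *Thbs1*, *Thbs2* and *Thbs4* stood in culture at 0.737, 0.722 and 0.784 times their code 1 level, and in tail at 0.807, 0.669 and 0.506 times. Of the 3 members tested in culture and the 4 in tail none passed 2-fold, beside 4.4% of all genes tested in culture (4.21% higher and 0.186% lower in code 2) and 8.23% in tail (5.47% higher and 2.76% lower).

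For the members in the RefSeq promoter table of GRCm38.p6, which holds 3 of the 5, the 250 bases before the start of the gene are shown, so that their sequences stand beside their levels. Capitals mark matches to TATAAA (the TATA box), to CANNTG (the E-box read by basic helix-loop-helix factors, the class Scx belongs to) and to CAGAC (a core of SMAD-binding elements), on either strand, and no matches overlapped. *Thbs2* lies at chr17:14694263-14694512 (minus strand), *Thbs4* at chr13:92794819-92795068 (minus strand) and *Thbs3* at chr3:89214930-89215179 (plus strand).
Thbs2: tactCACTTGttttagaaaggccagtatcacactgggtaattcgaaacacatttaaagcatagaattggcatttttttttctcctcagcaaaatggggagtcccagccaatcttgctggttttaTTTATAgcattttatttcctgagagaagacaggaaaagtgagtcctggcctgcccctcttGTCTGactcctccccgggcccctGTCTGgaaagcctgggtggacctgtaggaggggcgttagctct
Thbs4: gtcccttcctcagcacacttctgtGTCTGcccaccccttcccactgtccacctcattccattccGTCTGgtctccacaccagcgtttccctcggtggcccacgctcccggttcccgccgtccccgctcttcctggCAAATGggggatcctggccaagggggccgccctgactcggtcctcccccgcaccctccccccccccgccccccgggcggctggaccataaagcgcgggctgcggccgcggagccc
Thbs3: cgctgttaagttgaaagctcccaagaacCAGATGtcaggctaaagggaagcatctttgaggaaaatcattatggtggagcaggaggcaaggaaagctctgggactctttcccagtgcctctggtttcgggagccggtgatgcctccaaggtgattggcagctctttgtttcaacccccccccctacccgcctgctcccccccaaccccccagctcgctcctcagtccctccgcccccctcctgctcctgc

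Each of the 3 stretches held 1 E-box match, as did 66.2% of the 32851 promoter stretches of this length in the table in at least 1 place. *Thbs2* and *Thbs4* each held 2 CAGAC matches, all read on the opposite strand, and *Thbs3* held none, where 42.2% of all stretches held at least 1. The TATAAA letters were found in *Thbs2* only, on the opposite strand, and in 12.4% of all stretches. The G and C content was 46.8% in *Thbs2*, 70.8% in *Thbs4* and 58.8% in *Thbs3*.

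To see how many cells carried the genes, each cell was thinned to 3000 UMIs and shallower cells were left out, which removed 369 of 2964 cells in culture code 1 and 7 of 685 in tail code 1, and 214 of 855 in culture code 4 and 1 of 241 in tail code 4. *Thbs2* was then found in 57.5% (55.5–59.4) of culture code 1 cells and 20.6% (17.7–23.9) of tail code 1 cells, against 68.9% and 47.2% before thinning. In code 4 the thinned shares were 30% (26.4–33.7) in culture and 6.25% (3.54–10.1) in tail, and at 5000 UMIs, where 130 culture cells were left, they were 50.8% and 6.78%. In the pluripotent-like code 3 of the culture, whose cells had a median of 10370 UMIs, *Thbs2* was found in 0.925% (0.444–1.69) of thinned cells.

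*Thbs4* was found in 12.4% (11.2–13.7) of thinned culture code 1 cells and 8.41% (6.43–10.8) of tail code 1 cells, with 0.0925% in culture code 3. At 5000 UMIs these code 1 shares were 21.7% (19.6–23.9) and 9.94% (7.77–12.5). In code 4 it was found in 0.624% (0.17–1.59) of thinned culture cells and in 1 of 240 tail cells, and at 5000 UMIs in 3.08% (0.845–7.69) and in 0 of 236, which by the limit of 3 counts allows up to 1.27%. *Thbs1* was found in 40.4% (34.2–46.9) of thinned tail code 4 cells, 25% (21.7–28.5) of culture code 4 cells and 15.3% and 17.4% of culture and tail code 1 cells, an order that turned at 5000 UMIs, with 25.9% (23.7–28.3) and 23.9% (20.7–27.4). *Thbs3* was found in 3.39% (2.73–4.16) of culture and 9.88% (7.74–12.4) of tail code 1 cells, and in 1.76% (1.06–2.73) of culture code 3 cells. In the erythroid-like tail code 12 no UMI of any member was found in 125 thinned cells, which by the limit of 3 counts allows a share of up to 2.4% per gene.

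The UMIs of the members were gathered in few cells to different degrees. In culture code 1 the richest 10% of cells held 36.6% of the *Thbs2* UMIs, 71.7% of the *Thbs1* UMIs and 85.5% of the *Thbs4* UMIs. They held 100% of the 209 *Thbs3* UMIs, although no cell had more than 3, so the share also depends on how many UMIs were counted. In tail code 1 the richest 10% held 91% of the *Thbs4* UMIs, and 20 of 685 cells held 50% of them. *Comp* in tail code 4 was the extreme: 19 of 241 cells had a UMI, the richest cells had 39, 34, 11 and 8 UMIs, and the richest 1% of cells held 66.2%.

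**Figure D4:**
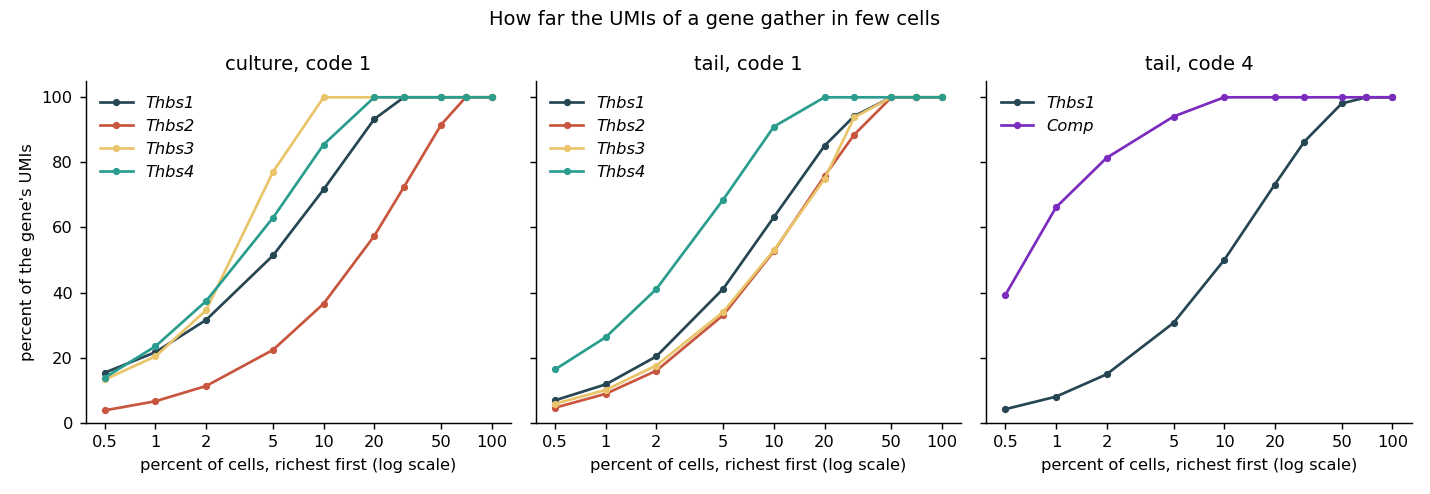
Percent of a gene's UMIs (vertical axis) held by the given percent of cells, richest first (horizontal log axis), in culture code 1, tail code 1 and tail code 4. *Thbs2* in culture code 1 rose slowest, with 36.6% of its UMIs in the richest 10% of cells, and *Comp* in tail code 4 rose fastest.

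The tail code 4 cells with *Comp* had more of several cartilage matrix genes than the others. The 19 cells with a *Comp* UMI, with a median depth of 15521 UMIs, had *Matn1* at 1127 CPM (1014–1250) and *Matn3* at 404 CPM (337–480), matrilins that bind Comp in cartilage, while the 222 cells without one, with a median depth of 12825 UMIs, had 67.3 CPM (58.3–77.2) and 56.6 CPM (48.4–65.8). *Col2a1* stood at 11572 and 3504 CPM and *Acan*, the large cartilage proteoglycan, at 918 and 188 CPM. *Scx* went the other way, at 655 CPM (569–750) in the cells with *Comp* and 2038 CPM (1988–2090) in those without, while *Dcn*, a tendon proteoglycan, was higher in the cells with *Comp*, at 153 CPM against 23.8 CPM, and *Sox9* stood at 1309 and 1204 CPM. At 3000 UMIs per cell, 7 of the 8 cells with *Comp* also had *Acan*, against 22.9% of all tail code 4 cells. *Thbs1* stood at 601 CPM (519–693) in the cells with *Comp* and 296 CPM (277–316) in those without.

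Pairs of genes were then followed in the same thinned cells, with 18 pairs in 6 groups, and their joint share was set beside the product of the single shares. Of the 108 combinations, 18 had an interval off the product at 3000 UMIs, and 9 were off in the same direction at 5000 UMIs. *Thbs4* and *Tnmd* shared cells more than the product: 32 cells of culture code 1 had both, where the product gave 12.7, and 10 cells of code 2, where it gave 2.7. *Thbs4* and *Fmod*, a small proteoglycan of tendon collagen, shared cells less in culture, 116 in code 1 where the product gave 141.8 and 34 in code 2 where it gave 69.1. In tail code 1 they shared 9 cells where the product gave 5.9, with the product inside the interval.

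*Thbs1* and *Scx* shared 33 cells of tail code 4, where the product gave 58.6, so 34% of the cells with *Thbs1* had *Scx* against 60.4% of all. In tail code 2 they shared 6 cells, where the product gave 14.3. In tail code 1 *Thbs1* was found with *Fos* in 86 cells and with *Egr1* in 77, where the products gave 67.4 and 58. With *Comp* and *Acan* in tail code 4, the combinations named here as off the product make up the 9.

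Outside the tendon-like and cartilage-like codes the members marked other groups. *Thbs1* reached its highest level of the 30 groups in culture code 9, 53 cells led by *Mmp3*, *Tfpi2* and *Grem1*, at 371 CPM (316–433), but 1 cell held 42.9% of these UMIs. This level and that of tail code 4 did not differ beyond counting error, with a ratio of tail code 4 to culture code 9 of 0.877 (0.743–1.04). Tail code 9 had *Pf4* at 213 CPM and no UMI of the platelet gene *Ppbp*. Its *Col1a1* at 2870 CPM and *Dcn* at 1505 CPM were near those of tail code 1, at 3185 and 1499 CPM. *Scx* was lower there, at 90.1 CPM against 1472 CPM. In tail code 9 *Thbs1* stood at 130 CPM (116–145), over 74 of 157 cells. In tail code 3, by contrast, 1 cell held 85.5% of the 55 UMIs.

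*Thbs2* was highest in D6 PM code 5, at 428 CPM (412–445). This code, 662 cells led by *Ctsk*, *Lox* and *Grem1*, held 97.7% of the D6 PM *Thbs2* UMIs in 11.1% of the cells, and the level outside it was 1.31 CPM. The somite-like D6 PM code 4, with *Meox1* at 187 CPM, had *Thbs2* at 4.61 CPM (3.06–6.66), so code 5 stood 93 times (64.2–140) higher. Code 5 also differed from the other D6 PM cells in genes of the sex chromosomes: 4 Y-linked genes summed to 125 CPM in code 5 and 0.37 CPM outside it, and *Xist* stood at 1152 and 33 CPM. Culture code 9 likewise had Y-linked genes at 54.7 CPM, against 0.0755 CPM in the other culture codes, and *Xist* at 631 CPM against 14 CPM. *Thbs2* stood there at 353 CPM (300–413), from 155 UMIs in 31 of 53 cells, and 1 cell held 24.5% of them. No ScxGFP UMI was found in D6 PM code 5, as in codes 3 and 6, while codes 1, 2 and 4 had 0.715 to 1.48 CPM, and none in culture code 9, where culture code 1 had 54.4 CPM. The origin of these cells, feeder cells included, was not tested.

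The tail held a further *Thbs2* group in code 14, 38 cells with the glial genes *Foxd3* and *Sox10* among those that led it, at 119 CPM (93.9–149), not apart from tail code 1 beyond counting error at a ratio of 1.18 (0.921–1.49). There *Thbs2* made up 93.8% of the thrombospondin UMIs.

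*Thbs3* was found at low levels in many groups. Its highest levels were tail code 1 at 35.8 CPM, culture code 5 at 24.8 CPM (21.2–28.9), a group led by *Trh*, *Sox3* and *Lin28b*, tail code 2 at 24.3 CPM, tail code 4 at 20.9 CPM and the nerve-like tail code 10 at 20.7 CPM from 35 UMIs, where it made up 85.4% of the family's UMIs. Codes 4 and 10 of the tail were not apart, with a ratio of 1.01 (0.66–1.56). Codes 1 and 2 held 52.2% of the *Thbs3* UMIs of the culture, close to their 51.1% of all UMIs, and 75.6% (72–78.9) of those of the tail, against 46.1% of all.

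*Thbs4* ranked culture code 1, culture code 2, tail code 1, and then a pair of groups not apart beyond counting error. These were culture code 7, a shallow group with a median of 1424 UMIs per cell, at 27.5 CPM (14.7–47.1) from 13 UMIs, and tail code 2 at 24.5 CPM (20–29.6). The D6 PM library held 8 *Thbs4* UMIs in all. *Comp*, outside the tail, was highest in culture code 8 at 5.85 CPM from 6 UMIs and in D6 PM code 1, a group of 2539 cells led by *Rbp4*, at 5.45 CPM (4.43–6.63) from 99 UMIs, which did not differ at a ratio of 1.07 (0.385–2.42).

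**Figure D5:**
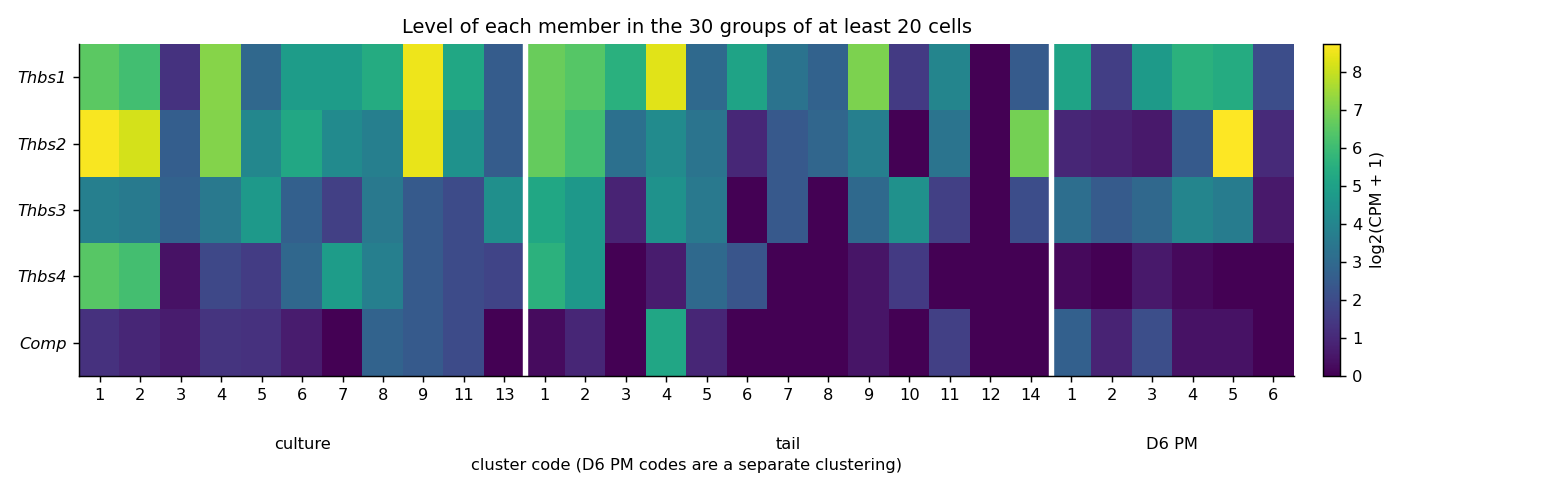
Level of each member, as log2(CPM + 1) by colour, in the 30 groups of at least 20 cells, by cluster code within the culture, tail and D6 PM libraries. *Thbs4* was bright in codes 1 and 2 of culture and tail, *Thbs2* also in D6 PM code 5 at 428 CPM, and *Comp* in tail code 4 alone reached 35.4 CPM.

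Over these 30 groups, which share 3 libraries and their depths, the gene closest to *Thbs2* among 17187 genes was *Postn*, the matrix protein periostin, with a Pearson r of 0.88 between log2(CPM + 1) values. Next came *Gm38211* and *Oaf*, both at 0.87. For *Thbs1* they were *Vasn* and *Bicc1* at 0.85 and *Mir763* at 0.83, and for *Thbs4* the smooth-muscle actin *Actg2* at 0.86, *Cys1* at 0.82 and *Gm34342* at 0.75. *Thbs3* was closest to *Arxes2* and *Glis2* at 0.74 and *Lysmd4* at 0.73, and *Comp* to *Agt* at 0.77, *Gm38066* at 0.66 and *Asb4* at 0.64. Among the members the highest r was 0.62, between *Thbs1* and *Thbs2*, and the lowest 0.05, between *Thbs4* and *Comp*.

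The receptors of thrombospondins were followed next. Of 12 listed, 9 passed the filter in code 1, with 1 higher in culture, 0 lower and a median log2 ratio of 0.54, beside −0.21 for all genes tested, of which 5.76% were higher and 13.6% lower, the shares beside which the code 1 counts of the lists below are also read. The one was *Cd47*, the receptor that holds back engulfment by macrophages, at 249 CPM in culture and 102 CPM in tail, a ratio of 2.44 (2.28–2.62), with 2.83 in code 2 and 3.65 in code 4. *Cd36*, the scavenger receptor of Thbs1 and Thbs2, had 2 UMIs in culture code 1 and 6 in tail code 1. In code 4, 8 receptors passed, with 1 higher and 1 lower, beside 4.86% and 13% of all genes tested. The lower one was *Cacna2d1*, the calcium channel subunit that binds thrombospondins, at 35.5 CPM in culture and 73.5 CPM in tail.

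Of the 14 matrix partners, 11 passed the filter in code 1, with 2 higher, 1 lower and a median log2 ratio of 0.29. *Fn1*, fibronectin, was 4.02 times (3.92–4.12) higher in culture, *Col9a3* 3.54 times higher, and *Matn2*, a matrilin, stood at 5.06 CPM in culture and 107 CPM in tail. *Matn2*, the 1 lower, passed the filter only through the tail, where it was high, so nothing is read from its call. In code 4 all 14 passed, with 3 higher and 4 lower and a median of −0.61, beside −0.18 for all genes tested and 4.86% and 13% of them called. There *Matn1* was at 0.902 CPM in culture, from 3 UMIs, and 170 CPM in tail, *Matn3* at 2.41 and 90.1 CPM and *Col9a1* at 687 and 1700 CPM, all lower in culture, while *Dcn*, *Fn1* and *Col14a1* were higher. *Matn1*, *Matn2* and *Matn3*, 3 of the 4 lower, passed the filter only through the tail, where they were high, so nothing is read from their calls.

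Among 10 genes of proteases and clearance, 9 passed in code 1, with 1 higher and 3 lower and a median log2 ratio of −0.06. Between codes 2 and 1 of the culture only 6 of the 10 passed. Some of the 9 therefore passed only through the tail, and nothing is read from the count of lower ones. *Mmp2*, a gelatinase that can cleave matrix, was 2.45 times (2.29–2.62) higher in culture, and *Adamts1*, a protease that can cut Thbs1 and Thbs2, stood at 35.6 CPM in culture and 90.1 CPM in tail. Of the 10 genes of latent TGFβ, 9 passed in code 1, with 1 higher and 3 lower and a median of −0.54. *Tgfb1* was at 61.5 CPM in culture, where TGFβ1 protein had been added, and 9.28 CPM in tail, while *Tgfb2* was at 76.4 and 284 CPM, *Ltbp1* at 89.2 and 179 CPM and *Tgfbr3* at 3.86 and 62.5 CPM. *Tgfbr3* passed the filter only through the tail, where it was high, so nothing is read from its being called lower. Of 8 response genes, 7 passed, with 3 higher and 2 lower and a median of 0.53. Between codes 2 and 1 of the culture 6 of the 8 passed. At least 1 of the 7 therefore passed only through the tail, and nothing is read from the count of lower ones. *Ctgf*, a matricellular gene induced by TGFβ, was at 151 CPM in culture and 28 CPM in tail, and *Tagln*, an actin-binding protein, at 499 and 167 CPM, whereas *Egr1* was lower in culture, as given above. In code 4, 4 passed, with 0 higher and 1 lower and a median of −0.26, beside 4.86% and 13% of all genes tested and a median of −0.18, and *Ctgf* stood at 304 and 293 CPM.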

How the data were processed

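Single-cell suspensions were depleted of dead cells and run as 10x 3-prime libraries, 1 per condition. Per the study's methods the authors aligned with Cell Ranger, ignored reads with several matches, removed cells above 7.5% mitochondrial reads and the bottom and top 2% of cells, and clustered with Seurat 3.0, D6 PM apart from culture and tail. The reference build of these libraries is not given in the sources used here. The deposited files hold raw UMI counts per gene and cell with a cluster code. From these counts, CPM of summed UMIs per code were computed with Python 3.11.15 and SciPy 1.17.1, with exact Poisson intervals for levels, conditional binomial intervals for ratios and Clopper-Pearson intervals for shares, all at 95% and covering counting error only. Totals were 53403944 UMIs in culture, 31343741 in tail and 51858825 in D6 PM, and 757 to 20902, 891 to 48291 and 650 to 27108 UMIs per cell. Scrublet called 116 culture and 9 tail cells doublets, which were kept in the main values. Between 3 and 10 cell barcodes were shared by any pair of libraries. Thinning left out 1157, 100 and 1006 cells. The calling of genes at 2-fold was tested on simulated data. The members and all gene lists were chosen with earlier results of these data known. The genes named are the members, the genes of the fixed lists that were at least 2-fold apart with at least 50 CPM in 1 library (with *Cd36*, *Mtx1*, *Pf4* and *Ppbp* added after their values were seen), and the 3 genes of most like pattern. Genes that lead a code are among the highest by fold over the other cells of its library.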

Additional observations from a re-analysis of the deposited data

Results flagged for a closer look

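*Comp* drew attention because its culture/tail ratio pointed in opposite directions in 2 cell groups. The ratio was 7.02 (1.73–61.4) in the tendon-like code 1, from 23 UMIs in culture and 2 in tail, and 12.2 from 20 and 1 UMIs without the cell richest in *Comp* in each library. It was 0.0425 (0.0135–0.102) in the cartilage-like code 4, from 5 UMIs in culture and 117 in tail, and 0.0508 from 4 and 78 UMIs without those cells. Each group was 1 library per condition, so the difference between the codes was not tested.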

How the results depend on the processing

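No paired analysis was possible because each condition was 1 library. Of 90 alternative values for the 15 culture/tail ratios, 83 stayed within the counting interval of the main value and 7 moved out of it. *Comp* in code 2, at 1.01, was 0.987 without haemoglobin, mitochondrial and ribosomal genes in the denominator and 0.973 as the mean of per-cell CPM, on the other side of 1, and the other 14 ratios kept their side. Relative to the median gene tested, the ratio was 0.98 for *Thbs1*, 4.56 for *Thbs2* and 2.09 for *Thbs4* in code 1, 4.84 for *Thbs2* in code 2 and 0.486 for *Thbs1* in code 4, so *Thbs4* in code 1 passed 2-fold there, while *Thbs3* in code 2 no longer did, at 0.524. As the mean of per-cell CPM, *Thbs2* was 4.58 in code 1 and 4.98 in code 2, *Thbs3* in code 2 was 0.547 and *Thbs4* in code 4 was 2.71. *Thbs3* in code 4, at 0.504, passed 2-fold at 0.496 without haemoglobin, mitochondrial and ribosomal genes in the denominator. Leaving out called doublets or cells under 1000 genes kept all 15 ratios within their counting intervals. So did leaving out the cell richest in the gene in each library, chosen after seeing the data, but the intervals are wide for rare genes: *Comp* went to 12.2 in code 1 and 3.62 in code 2 and *Thbs4* to 6.96 in code 4. Of 80 alternative values between codes 4 moved, all as the mean of per-cell CPM, where *Thbs3* between codes 2 and 1 of the culture also went from 0.889 to 1.01. By that mean, *Thbs4* in code 4 relative to code 1 of the tail went from 0.0125 to 0.0203. That ratio rests on 2 UMIs in code 4, and the change stayed within its counting interval. At 1.5-fold 3969, 4226 and 3665 genes were apart in codes 1, 2 and 4, and without a filter 10648, 9412 and 9208. With at least 50 UMIs over both libraries it was 3483 in code 1. Centring on the median gene raised the share of called genes that were higher in culture from 29.7% to 42.5% in code 1, from 28.8% to 40.6% in code 2 and from 27.2% to 40.3% in code 4, and the minimum of 50 UMIs gave 34%, 40.2% and 39%. At 5000 UMIs, a depth added for gene pairs after seeing the data, the joint share of *Thbs2* and *Thbs3* in culture code 4 was 1.32 times the product, from 2 cells, where it had been below it. Of 30 shares of cells 18 moved at that depth. Ratios of *Comp* in codes 1 and 2 and of *Thbs4* in code 4 rest on fewer than 30 UMIs. The cause of the changes was not tested.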
